A study of Mus musculus with 2 samples.

Results

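Neutrophil granule and alarmin genes were followed in leukocytes of mouse brown adipose tissue (BAT). The set holds 10 of the 32285 genes in the deposited count tables, chosen by name, namely *S100a8*, *S100a9*, *Retnlg*, *Lcn2*, *Ltf*, *Camp*, *Ngp*, *Mmp8*, *Mmp9* and *Prtn3*. All 10 had at least 1 count in the cells kept. CD45+ Dapi- cells, which are viable leukocytes, were sorted from digested BAT and captured in droplets, with 1 library per condition. Transcripts were counted by unique molecular identifiers (UMIs), once each at the 3′ end, so that a longer gene gains no counts from its length. Both libraries came from male AdipoQ-CreERT2 ATGLfl/fl mice on C57Bl/6, given as 16 weeks old in the labels, whereas the study's own text gives a younger age for these mice. The control mice received vehicle. The AdipoΔ/Δ mice received tamoxifen over 1 week and rested for 2 weeks, after which the Cre, driven from the adiponectin gene in adipocytes, had removed ATGL there. Leukocytes keep the floxed gene, and the effect of tamoxifen itself cannot be told apart from that of the deletion. How many mice went into a library is not given in the sources used here, and since a condition had only 1 library, the conditions could not be tested against each other.

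Neutrophils make their granule proteins in waves while they mature in the bone marrow. Proteases of the azurophil granules, such as proteinase 3, come first, proteins of the specific granules, such as lactoferrin and cathelicidin, follow, and gelatinase comes late. The S100A8 and S100A9 proteins lie in the cytosol, bind calcium and zinc as a pair, and act as alarmins when a cell releases them. Lymphocytes were taken as non-producers of these proteins. Their UMIs served here as the reference for transcripts that reach a droplet from outside its cell. This premise was not tested, and *Mmp9* counts in AdipoΔ/Δ lymphocytes were uneven between T, B and NK cells.

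The control library held 2597 barcodes and 11327187 UMIs and the AdipoΔ/Δ library 2381 barcodes and 12028844 UMIs, and 4 barcode sequences occurred in both. Barcodes that showed under 200 genes, or had mitochondrial UMIs above 10%, were dropped, which left 2279 and 2016 cells with median depths of 3678 and 3942 UMIs. They were clustered together without the 10 genes and without a longer list of granule genes, and the 18 clusters were named from markers that are not among them. A name ending in "-like" stands for such a match. In 3 clusters no list matched. They were led by *Cd7* (1.80% of control and 1.98% of AdipoΔ/Δ cells), by *Gm26917* (1.84% and 3.62%) and by *Lyz1* (2.15% and 8.93%), and they stayed unnamed. No doublet caller was run. The filters also left out 47 control and 5 AdipoΔ/Δ barcodes with 100 or more UMIs of *S100a8* and *S100a9*.

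Neutrophil-like cells numbered 312 in the control library and 171 in the AdipoΔ/Δ library. All 7 neutrophil markers outside the set were detected in at least 10% of them, at summed levels of 7191 and 10855 CPM, which is UMIs per 1000000 UMIs of the class. Their median depth was 2968.5 UMIs in control and 2695 UMIs in AdipoΔ/Δ cells. The median share of mitochondrial UMIs, a sign of RNA quality, was 1.69% and 0.383%, and its part in the differences below was not tested. Lymphocyte-like cells, which are the T, B and NK cell-like clusters together, numbered 856 and 536, with median depths of 3362.5 and 4837 UMIs.

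The start regions of 7 of the genes are shown, because the results below turn on them. *S100a8* (chromosome 3, 90668978 to 90670035) and *S100a9* (chromosome 3, 90692632 to 90695721) lie 22.6 kb apart on opposite strands. *Ltf*, *Ngp* and *Camp* lie within 1.17 Mb of each other on chromosome 9, *Mmp8* is on the same chromosome 102 Mb away from *Camp*, and *Prtn3* is on chromosome 10. The sequences are the RefSeq promoter entries on GRCm38.p6, cut to the longest run before the RefSeq start that no annotated exon covers, and run 5′ to 3′ along the strand of the gene. For *Prtn3* that run lies within the GENCODE gene, whose model begins further upstream at 79874476, and for *Mmp8* it ends short of the GENCODE start at 7558456. Capitals mark matches to TTNNGNAA or its reverse TTNCNNAA, letters bound by C/EBP factors, a family that drives granule genes. Stretches and strands are chr3:90668821-90668977 (plus) for *S100a8*, chr3:90695722-90695971 (minus) for *S100a9*, chr9:111019042-111019270 (plus) for *Ltf*, chr9:110419558-110419746 (plus) for *Ngp*, chr9:109849618-109849706 (minus) for *Camp*, chr9:7558179-7558428 (plus) for *Mmp8* and chr10:79879417-79879613 (plus) for *Prtn3*.
S100a8: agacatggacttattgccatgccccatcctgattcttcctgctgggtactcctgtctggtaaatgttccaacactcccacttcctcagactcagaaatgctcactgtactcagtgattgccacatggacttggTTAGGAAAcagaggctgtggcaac
S100a9: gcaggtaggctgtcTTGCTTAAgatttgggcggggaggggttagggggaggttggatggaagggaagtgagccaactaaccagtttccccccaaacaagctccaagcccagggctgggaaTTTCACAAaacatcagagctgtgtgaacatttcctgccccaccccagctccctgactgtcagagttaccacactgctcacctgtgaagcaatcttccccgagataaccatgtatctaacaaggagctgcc
Ltf: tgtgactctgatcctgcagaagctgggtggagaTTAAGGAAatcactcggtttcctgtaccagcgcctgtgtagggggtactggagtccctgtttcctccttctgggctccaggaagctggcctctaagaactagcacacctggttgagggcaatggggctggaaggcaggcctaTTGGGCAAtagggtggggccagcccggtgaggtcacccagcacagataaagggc
Ngp: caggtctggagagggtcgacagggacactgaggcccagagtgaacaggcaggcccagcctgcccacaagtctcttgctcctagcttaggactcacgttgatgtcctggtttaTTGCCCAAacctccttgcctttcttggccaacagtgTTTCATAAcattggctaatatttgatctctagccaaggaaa
Camp: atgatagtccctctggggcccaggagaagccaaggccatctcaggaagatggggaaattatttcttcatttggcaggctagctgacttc
Mmp8: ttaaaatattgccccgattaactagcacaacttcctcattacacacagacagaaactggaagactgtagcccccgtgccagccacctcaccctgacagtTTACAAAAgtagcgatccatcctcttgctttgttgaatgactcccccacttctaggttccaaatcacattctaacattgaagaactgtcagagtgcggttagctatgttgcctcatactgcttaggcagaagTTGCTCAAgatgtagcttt
Prtn3: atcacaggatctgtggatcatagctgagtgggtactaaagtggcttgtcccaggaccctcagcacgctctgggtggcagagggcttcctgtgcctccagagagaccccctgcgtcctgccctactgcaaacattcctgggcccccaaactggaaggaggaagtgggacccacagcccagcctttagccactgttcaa
In the full entries of 300 bases, 250 before the start and 50 after it, 7 of the 9 members with an entry held such a match, against 40.7% of 27025 mouse promoters. GAGGAA or its reverse TTCCTC, letters bound by PU.1, stood in 5 of the 9, against 28.3% of all promoters. *Prtn3* and *Camp* held no C/EBP letters in this window. A match describes the letters only.

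Neutrophil-like cells carried most of the set's UMIs. The 10 genes made up 26.6% (26.5 to 26.7) of all UMIs of these cells in the control library and 18.9% (18.8 to 19.0) in the AdipoΔ/Δ library. Values in parentheses are exact 95% intervals, binomial for shares and for ratios and Poisson for sums, and they cover counting error only. Per cell, this was 903 UMIs in control and 542.7 UMIs in AdipoΔ/Δ mice, a ratio of 0.601 (0.597 to 0.605) for AdipoΔ/Δ over control. As CPM the ratio was 0.712 (0.707 to 0.717), and with the neutrophil class taken from markers alone it was 0.435. That marker class held 370 control and 243 AdipoΔ/Δ cells, of which only 305 and 165 were neutrophil-like by cluster. In the median over the 1758 genes with at least 100 UMIs in the neutrophil-like class the CPM ratio was 1.20, so that the members were low against the other genes as well as on the plain scale. With totals that leave out the members and mitochondrial genes, the members' ratio was 0.633.

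**Figure D1:**
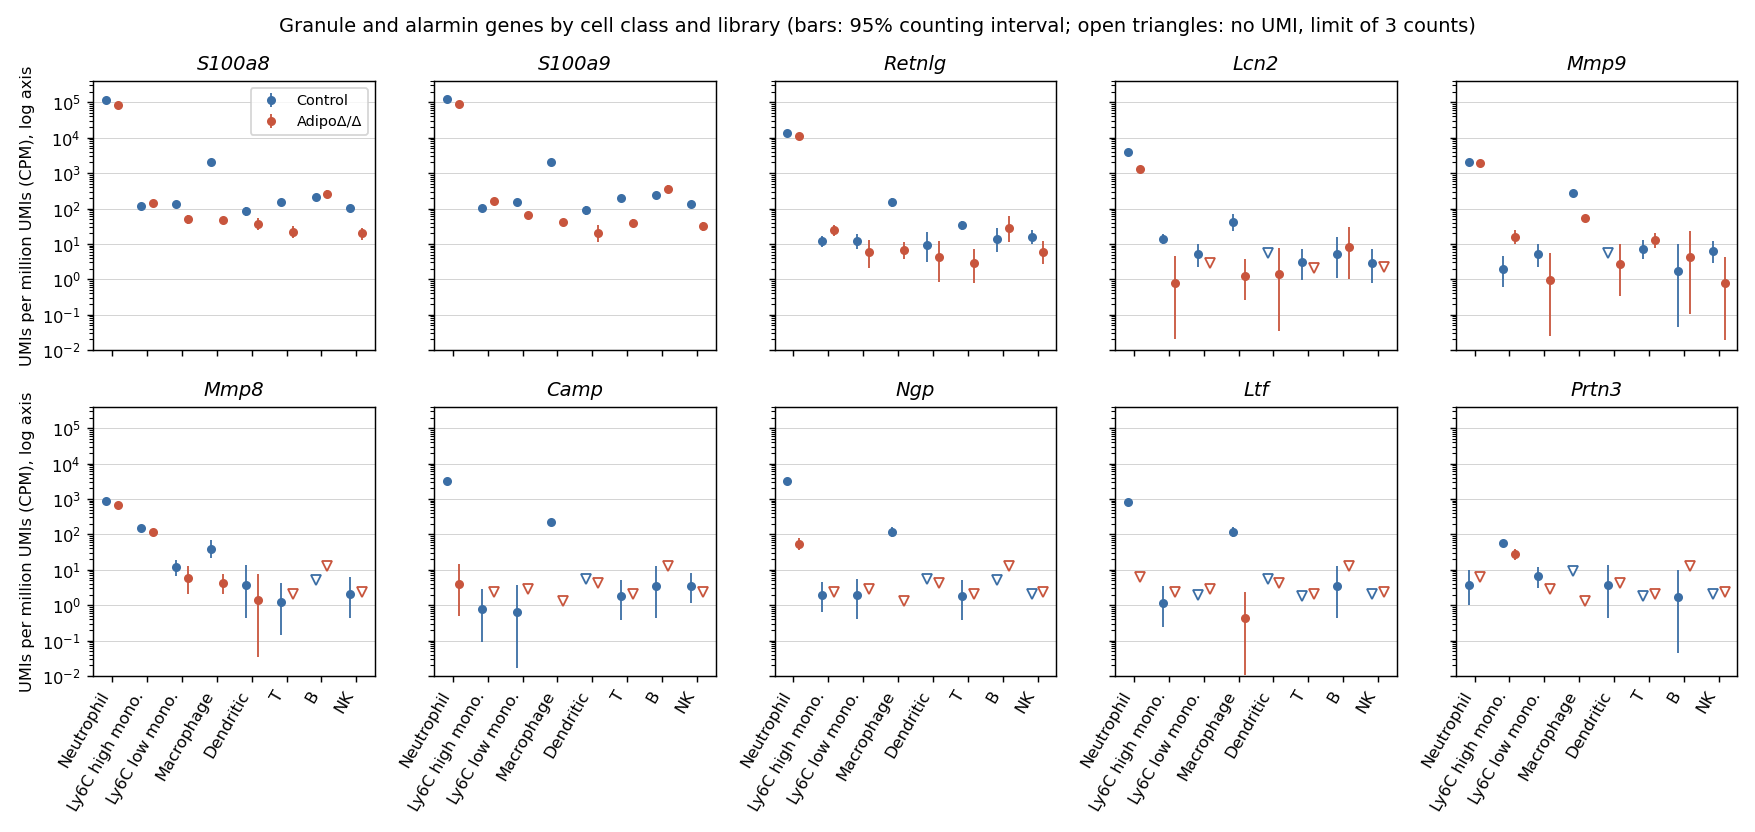
Level of each gene as CPM (log axis) in 8 leukocyte classes, 1 panel per gene, with control and AdipoΔ/Δ libraries side by side; bars are 95% counting intervals and open triangles mark 0 UMIs, drawn at the limit of 3 counts. All genes but *Prtn3* were highest in control neutrophil-like cells, whereas *Prtn3* was highest in Ly6C high monocyte-like cells of both libraries.

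*S100a8* and *S100a9* were the most abundant of the 10 genes. *S100a8* was measured at 116501.5 CPM in control and at 84472.6 CPM in AdipoΔ/Δ neutrophil-like cells, a ratio of 0.725 (0.717 to 0.733). *S100a9* was at 121309.6 and 89542.2 CPM, a ratio of 0.738 (0.730 to 0.746). Both alarmins were thus lower in the AdipoΔ/Δ library by about the same factor. A control cell held a median of 259 *S100a8* and 286 *S100a9* UMIs, and an AdipoΔ/Δ cell 151 and 176. The ratio of the pair within a cell was taken in 303 control and 166 AdipoΔ/Δ cells, without cells of few UMIs of either gene. Its median was 1.06 *S100a9* UMIs for each *S100a8* UMI in control, with a 5th to 95th percentile of 0.737 to 1.58. In AdipoΔ/Δ cells it was 1.11, with 0.669 to 2.15. *S100a8* and *S100a9* together took a median of 19.1% of a control cell's UMIs, with a range from 0.979% to 46.0%. For an AdipoΔ/Δ cell this was 14.3%, with a range from 1.02% to 50.7%. The ranges of the libraries overlap almost entirely. Of all *S100a8* UMIs in kept cells, 98.5% lay in neutrophil-like cells in control and 98.4% in AdipoΔ/Δ mice.

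Outside neutrophils the alarmin transcripts were seen in every class. A lymphocyte-like cell held 0.610 *S100a8* UMIs on average in the control library and 0.226 in the AdipoΔ/Δ library, and 0.776 and 0.345 *S100a9* UMIs. At least 1 *S100a8* UMI was found in 33.9% of control and 11.01% of AdipoΔ/Δ lymphocyte-like cells. After each cell was thinned to 1000 UMIs, which leaves out 90 control and 41 AdipoΔ/Δ cells of lower depth, these shares were 12.9% and 2.77%. The reference was therefore higher in the control library, in which the neutrophil-like cells also held more of these transcripts. Over all 10 members it was 1.55 UMIs per control and 0.647 per AdipoΔ/Δ cell, but 1.33 and 1.20 with the study's mitochondrial limit of 2%. Within the control library the *S100a8* mean per cell was 0.659 in T, 0.470 in B and 0.696 in NK cell-like cells. In the AdipoΔ/Δ library it was 0.114, 0.696 and 0.150. The high AdipoΔ/Δ B cell-like value rested on 1 cell with 128 UMIs of the pair, out of 152 in that class.

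A few cells held much of what was counted outside neutrophils. In control lymphocyte-like cells, 5 cells with at least 10 UMIs of the pair carried 24.8% of it, and 1 T cell-like cell alone had 168. Among control macrophage-like cells 14 such cells carried 90.9%, with up to 441 in 1 cell. In AdipoΔ/Δ Ly6C high monocyte-like cells 2 cells carried 79.3%. Of the 14 macrophage-like cells, 4 also had UMIs of at least 2 of the 7 neutrophil markers, as did both of the monocyte-like cells. Whether such droplets held more than 1 cell was not tested. In the remaining cells the pair averaged 1.05 UMIs per control lymphocyte-like cell and 1.31 per macrophage-like cell, and 0.333 and 0.473 in AdipoΔ/Δ mice.

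**Figure D2:**
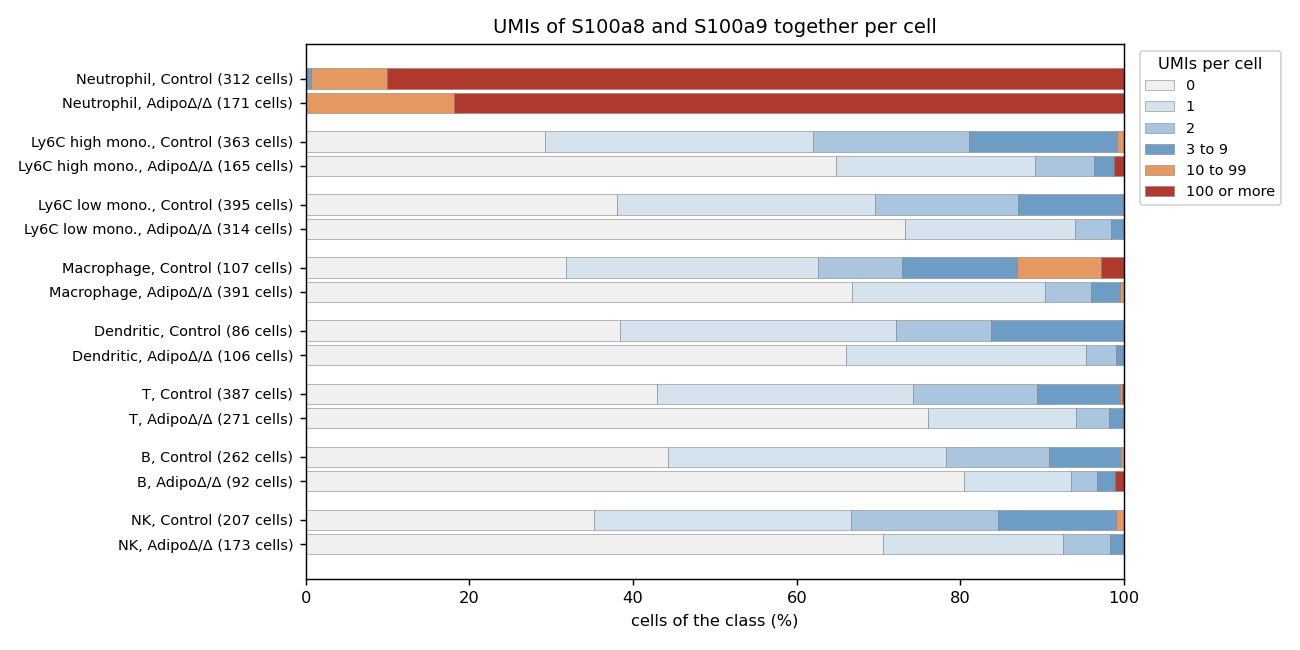
Share of cells (horizontal axis, percent of the class) by the number of *S100a8* and *S100a9* UMIs in the cell, for 8 classes in each library. In neutrophil-like cells 90.1% of control and 81.9% of AdipoΔ/Δ cells held 100 or more, while most other cells held 0, 1 or 2, and 0 was more frequent in each AdipoΔ/Δ class than in its control counterpart outside the neutrophil-like cells.

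Against lymphocyte-like cells of the same library, the level of the pair in neutrophil-like cells was far higher. Per cell, *S100a8* was 649-fold (595 to 708) above the reference in control and 1073-fold (897 to 1293) in AdipoΔ/Δ mice, and *S100a9* 531-fold (492 to 574) and 744-fold (644 to 864). In control Ly6C high monocyte-like cells the ratios were 1.35 (1.17 to 1.56) and 0.952 (0.823 to 1.10). There 47.7% of cells had an *S100a8* UMI, but their median depth was 6975 UMIs, and after thinning the share was 12.3%, against 12.9% in lymphocyte-like cells. Without the cells of 10 or more alarmin UMIs in both classes the control ratios were 1.62 (1.38 to 1.90) and 1.19 (1.02 to 1.38). The *S100a8* count per cell was thus above the reference, but by less than 2-fold. In AdipoΔ/Δ mice the monocyte ratios were 4.81 and 3.65 with all cells. Without the alarmin-rich cells they were 1.39 (0.862 to 2.20) and 1.52 (1.07 to 2.14), with 28 and 52 UMIs left.

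*Retnlg*, which encodes the secreted resistin-like gamma, was the next in abundance. It was measured at 13940.9 CPM in control and at 11371.5 CPM in AdipoΔ/Δ neutrophil-like cells, a ratio of 0.816 (0.791 to 0.841). Nearly every neutrophil-like cell carried it, 95.5% in control and 95.9% in AdipoΔ/Δ mice, against 5.72% and 2.80% of lymphocyte-like cells. After thinning to 1000 UMIs, which leaves out 21 control and 16 AdipoΔ/Δ neutrophil-like cells, the shares were 93.4% and 91.5%, against 2.02% and 0.949%. The counts per cell were uneven, with a median of 25 and a maximum of 403 UMIs in control and a median of 14 and a maximum of 433 in AdipoΔ/Δ cells. Per cell the level was 471-fold (381 to 589) and 920-fold (588 to 1529) that of lymphocyte-like cells.

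The specific granule genes were distributed in another way. *Camp*, the precursor of the antimicrobial cathelicidin peptide, had 3477 UMIs in control neutrophil-like cells, or 3282 CPM, and 2 UMIs in AdipoΔ/Δ neutrophil-like cells, or 4.08 CPM. The ratio was 0.00124 (0.000150 to 0.00449). *Ltf*, which encodes the iron-binding lactoferrin, had 886 and 0 UMIs and was at least 136.7-fold lower in the AdipoΔ/Δ library, with 3 counts taken in place of 0. *Ngp*, the neutrophilic granule protein, had 3477 UMIs in control, the same total as *Camp* from separate counts, and 27 in AdipoΔ/Δ cells, a ratio of 0.0168 (0.0110 to 0.0245). These 3 genes were not spread over the class. Only 2.56% of control cells had a *Camp* UMI, 1.92% an *Ltf* UMI and 13.8% an *Ngp* UMI, against 1.17%, 0.234% and 0.234% of lymphocyte-like cells.

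Almost all of these UMIs lay in 6 control cells. They are the cells with at least 10 *Camp* UMIs, a limit chosen after the counts were seen, and make up 1.92% (0.709 to 4.14) of the 312. *Camp* had 1074, 999, 514, 461, 355 and 72 UMIs in them, *Ltf* 161, 118, 281, 135, 154 and 37, and *Ngp* 705, 900, 795, 462, 324 and 204, in the same order of cells. The 3 genes were high in the same cells, all of which were control cells. The 6 cells held 100% of the *Ltf*, 99.9% of the *Camp* and 97.5% of the *Ngp* UMIs of the class. Among the 171 AdipoΔ/Δ neutrophil-like cells 0 had 10 *Camp* UMIs, for which the exact interval reaches up to 2.13%, above the control share.

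The same 6 cells differed from the other 306 control cells in further members. *Lcn2*, which encodes lipocalin-2, a binder of bacterial siderophores, had 338, 193, 677, 382, 141 and 37 UMIs in them, and its CPM was 9.02-fold (8.48 to 9.60) that of the others. *Retnlg* had 25, 1, 2, 8, 3 and 1 UMIs, 30.4-fold lower in CPM. *S100a8* was 1.90-fold (1.87 to 1.93) and *S100a9* 1.58-fold (1.55 to 1.61) higher, and *Mmp8* was at 1.24-fold (0.986 to 1.55) the level of the others. The cells were also deeper, with a median of 14809.5 UMIs against 2927.5. Their *Il1b*, a cytokine gene, had 0 UMIs against 6187 in the other control cells, and *Cxcr2*, the chemokine receptor of circulating neutrophils, had 7 against 2080. *Chil3*, a chitinase-like protein gene, had 422 of its 429 UMIs in them. *Cebpe*, the C/EBP factor tied to specific granules and named here after its values were seen, had 37 of 46. UMIs of 5 genes of dividing cells, *Mki67*, *Top2a*, *Hist1h1b*, *Ccna2* and *Birc5*, were at 0 in all 6. *Camp*, *Ltf* and *Ngp* were thus concentrated in cells with few UMIs of *Retnlg*, *Il1b* and *Cxcr2*.

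**Figure D3:**
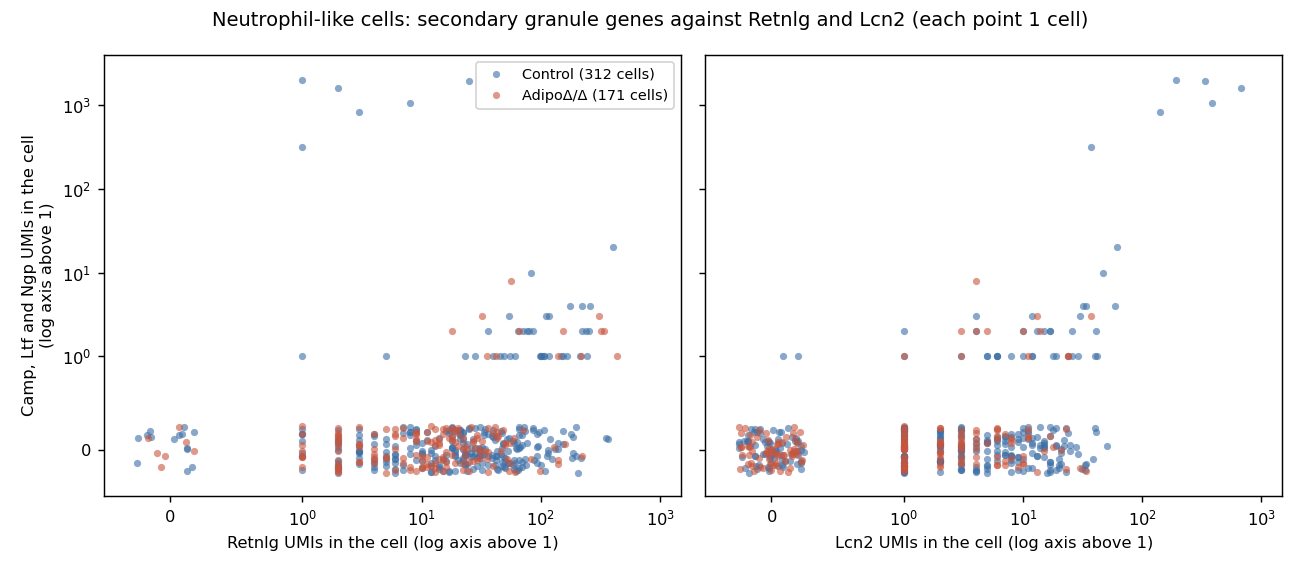
UMIs of *Camp*, *Ltf* and *Ngp* together (vertical axis, log above 1) against *Retnlg* (left) and *Lcn2* (right) in each neutrophil-like cell of both libraries; points at 0 are spread for sight. The 6 control cells stand apart at the top, with 25 or fewer *Retnlg* UMIs and 37 or more *Lcn2* UMIs, and no AdipoΔ/Δ cell lies near them.

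Outside the 6 cells the specific granule genes were at low levels. The other 306 control cells held 2 *Camp* and 0 *Ltf* UMIs, and 87 *Ngp* UMIs in 37 cells. *Ngp* was at 88.9 CPM there and at 55.1 CPM in AdipoΔ/Δ cells, a ratio of 0.620 (0.387 to 0.964). *Camp*, with 2 UMIs on either side, gave a ratio of 2.00 (0.145 to 27.5). Another control cell with *Camp* at 71, *Ltf* at 39 and *Ngp* at 37 UMIs lay in the macrophage-like class. It had 1308 UMIs in all, 0 of them from the 10 macrophage markers, 73 from *S100a8* and 58 from *S100a9*. Without the 14 cells of 10 or more alarmin UMIs, among which it was, the macrophage-like control cells had 0 *Camp* and 0 *Ltf* UMIs.

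*Lcn2* stood between both patterns. It was measured at 3912 CPM in control and at 1306 CPM in AdipoΔ/Δ neutrophil-like cells, a ratio of 0.334 (0.307 to 0.363). The 6 cells held 42.7% of its control UMIs, and without them the ratio was 0.538 (0.492 to 0.587). An *Lcn2* UMI was found in 76.0% of control and 61.4% of AdipoΔ/Δ neutrophil-like cells, or in 64.6% and 45.4% after thinning, against 1.40% and 0.373% of lymphocyte-like cells before thinning. The median was 3 UMIs per control and 1 UMI per AdipoΔ/Δ cell. *Lcn2* thus remained lower in the AdipoΔ/Δ library with either set of control cells, but past a 2-fold difference only with the 6 cells included.

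The metalloproteinase genes were spread over most neutrophil-like cells. *Mmp9*, which encodes the late gelatinase B, was measured at 2013 CPM in control and at 1918 CPM in AdipoΔ/Δ cells, a ratio of 0.953 (0.882 to 1.03), and was found in 95.2% and 97.1% of cells, or 82.0% and 82.5% after thinning, against 1.75% and 2.80% of lymphocyte-like cells before it. The interval includes equal levels on this scale. With totals that leave out the members and mitochondrial genes, however, the ratio was 0.848 (0.784 to 0.916). *Mmp8*, the neutrophil collagenase, was at 882.7 and 654.9 CPM, a ratio of 0.742 (0.652 to 0.843), in 67.6% and 59.7% of cells, or 44.3% and 36.9% after thinning, against 0.467% and 0 of lymphocyte-like cells before it. In neutrophil-like cells *Mmp9* was 266-fold (175 to 425) above the lymphocyte-like level in control and 147-fold (94.8 to 242) in AdipoΔ/Δ mice, and *Mmp8* 513-fold (219 to 1584) and at least 335.4-fold.

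*Mmp8* was also found in monocytes. Ly6C high monocyte-like cells, 363 in control and 165 in AdipoΔ/Δ mice, held 403 and 143 *Mmp8* UMIs, which is 29.2% and 29.4% of all *Mmp8* UMIs in kept cells. The level was 155.1 CPM in control and 115.3 CPM in AdipoΔ/Δ cells, a ratio of 0.744 (0.610 to 0.902). An *Mmp8* UMI was seen in 43.0% and 34.5% of these cells. After thinning, which leaves out 10 and 4 of them, the shares were 11.5% and 9.83%, against 0.124% and 0 in lymphocyte-like cells. Per cell, the level was 190-fold (80.8 to 588) above lymphocyte-like cells in control and at least 154.8-fold in AdipoΔ/Δ mice. *Mmp8* stood at 134.8 (115.8 to 157.1) UMIs per 100 of *S100a8* in control and 79.9 (63.7 to 100.1) in AdipoΔ/Δ monocyte-like cells, against 0.758 and 0.775 in neutrophil-like cells. In the Ly6C low monocyte-like cells, *Mmp8* had 18 and 6 UMIs, of which 17 and 3 lay in the cluster led by *Gngt2*.

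*Mmp9* was also found in macrophages. Macrophage-like cells held 88 *Mmp9* UMIs in control and 124 in AdipoΔ/Δ mice, of which 82 and 117 lay in the cluster led by *Folr2* and *Lyve1*, markers of resident macrophages. In that cluster 30.6% of the 62 control and 29.4% of the 126 AdipoΔ/Δ cells had an *Mmp9* UMI, with up to 16 and 15 in a cell, and the share in lymphocyte-like cells was 1.75% and 2.80%. The level per cell was 51.5-fold (31.8 to 86.5) and 24.9-fold (15.4 to 42.2) that of lymphocyte-like cells. Over the whole class the level was 269.4 CPM in control and 52.6 CPM in AdipoΔ/Δ mice. Within the *Folr2* cluster it was 364.6 and 134.6 CPM, a ratio of 0.369 (0.276 to 0.496), or 0.702 (0.525 to 0.943) per cell. The class was also made up differently. The *Folr2* cluster and those led by *Gsn* and *Gpnmb* held 62, 32 and 13 control and 126, 170 and 95 AdipoΔ/Δ cells. Without the cells of 10 or more alarmin UMIs, 62 and 122 *Mmp9* UMIs were left in the class.

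*Prtn3*, which encodes the azurophil protease proteinase 3, was counted mostly in monocytes and hardly in neutrophils. Neutrophil-like cells held 4 UMIs in control and 0 in AdipoΔ/Δ mice. The azurophil genes *Mpo*, *Elane* and *Ctsg* had 0 UMIs in neutrophil-like cells of either library. Ly6C high monocyte-like cells held 148 of the 168 *Prtn3* UMIs in control and all 34 in AdipoΔ/Δ mice, at 57.0 CPM and 27.4 CPM, a ratio of 0.481 (0.321 to 0.703). A UMI was found in 24.5% and 12.1% of these cells, or in 4.66% and 2.04% after thinning, against 1 of the 856 control and 0 of the 536 AdipoΔ/Δ lymphocyte-like cells. The control level per cell was 349-fold (61.7 to 13876.8) that of lymphocyte-like cells, which rests on 1 UMI there, and the AdipoΔ/Δ level was at least 36.8-fold higher. *Mmp8* was found in 58.4% of the control monocyte-like cells with *Prtn3* and in 38.0% of those without it, and in 60% and 31.0% in AdipoΔ/Δ mice. The cells with *Prtn3* were also deeper, at a median of 9341 against 5828.5 UMIs in control and 11013.5 against 6442 UMIs in AdipoΔ/Δ mice, and the part of depth in this was not tested.

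Over the whole set, 9 of the 10 genes had at least 100 UMIs in neutrophil-like cells of both libraries together. Of these, 4 (*Lcn2*, *Camp*, *Ngp* and *Ltf*) were past 2-fold lower in the AdipoΔ/Δ library, where 1.48% of the 1758 genes measured in the class were, and 0 were 2-fold higher, against 2.73%. *Camp*, *Ngp* and *Ltf* reached 100 UMIs through the control library alone. Their place among the lower genes thus follows in part from this limit, and the count is a description. With the class taken from markers alone, 8 members were past 2-fold lower. Of the 370 control and 243 AdipoΔ/Δ cells of that class, however, only 305 and 165 were neutrophil-like by cluster. Other cells thus made up a larger part of it in the AdipoΔ/Δ library, and their part in these ratios was not tested. Without the 6 control cells, 0 members were past 2-fold lower, and the ratios of *S100a8* (0.775), *S100a9* (0.771), *Retnlg* (0.756), *Mmp8* (0.756) and *Mmp9* (0.930) were below 1, for *Mmp9* with an interval from 0.860 to 1.005.

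**Figure D4:**
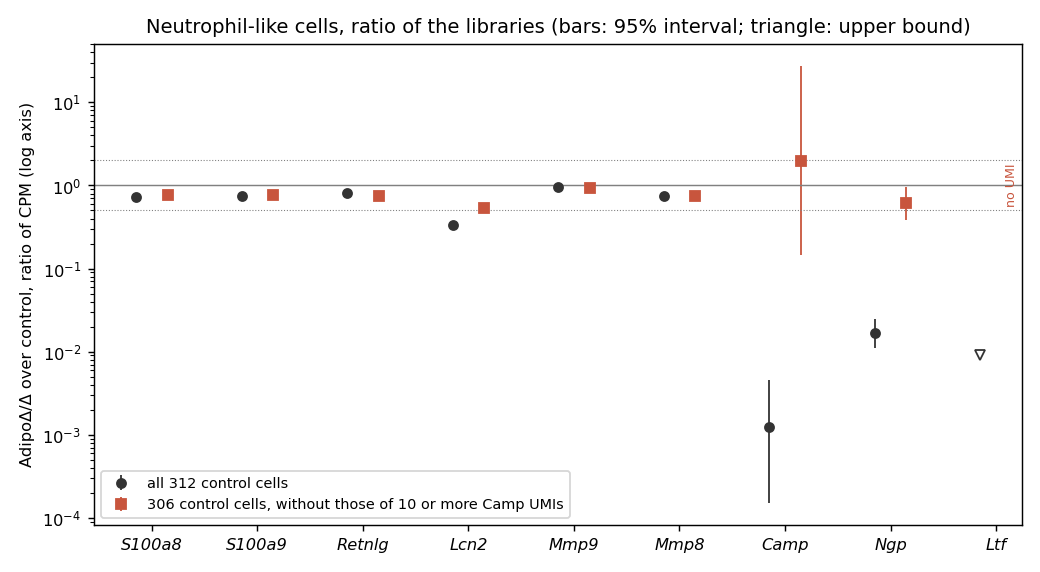
Ratio of AdipoΔ/Δ over control CPM of 9 members in neutrophil-like cells (log axis) with all 312 control cells and with the 306 left without the 6 *Camp* cells; bars are 95% counting intervals, dotted lines mark 2-fold and the triangle is an upper bound. Leaving out 6 cells moved *Camp* from 0.00124 to 2.00 and *Ngp* from 0.0168 to 0.620, but *S100a8* only from 0.725 to 0.775.

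Against lymphocyte-like cells, a gene was counted as past the reference where its ratio of UMIs per cell and the lower end of the interval were at least 2. In neutrophil-like cells this held for 9 of the 10 members in control and 7 in AdipoΔ/Δ mice. Of the genes that reached 100 UMIs over both classes it held for 9 of 9 and 6 of 6 members, against 12% and 7.97% of all such genes. The set was chosen as neutrophil genes. Its members other than *S100a8* and *S100a9* reached that limit only with their UMIs in neutrophil-like cells. These counts thus follow from the choice of genes and are a description. In Ly6C high monocyte-like cells it held for *Lcn2*, *Mmp8* and *Prtn3* in control, where *Lcn2* rested on 37 UMIs in 22 cells. In AdipoΔ/Δ mice it held for 5 members, of which only *Mmp8* and *Prtn3* were left without the cells of 10 or more alarmin UMIs. The background was 24.9% and 14.9% of genes there, so that 2 of 5 and 3 of 3 members with 100 UMIs stood beside a large share of all genes. *Mmp8* in both libraries and *Prtn3* in control reached that limit only through the monocyte-like cells. *Lcn2* had 37 UMIs in control and 1 in AdipoΔ/Δ monocyte-like cells, a CPM ratio of 0.0566 (0.0014 to 0.336). *Mmp9* had 5 and 20 UMIs there, a ratio of 8.38 (3.05 to 28.6). Without the cells of 10 or more alarmin UMIs it had 5 and 6, a ratio of 2.57 (0.653 to 10.6).

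The remaining myeloid classes differed in how many members passed the reference. In Ly6C low monocyte-like cells they were *Mmp8* and *Prtn3* in control and *Mmp8* in AdipoΔ/Δ mice, each below 100 UMIs, and of the 3 and 2 members above that limit 0 passed, against 11.7% and 7.09% of genes. In dendritic cell-like cells 0 of 10 members passed in either library. Only 2 members, *S100a8* and *S100a9*, were above the 100 UMI limit there, and 0 of them passed, against 7.98% and 6.11% of genes. In macrophage-like cells 9 members passed in control and *Mmp8* and *Mmp9* in AdipoΔ/Δ mice, with 4 of 4 and 1 of 3 members of 100 UMIs against 4.37% and 13.9%. Without the cells of 10 or more alarmin UMIs, *Mmp9* alone passed in control and *Mmp8* and *Mmp9* in AdipoΔ/Δ mice. *S100a8* and *S100a9* were at 0.868 and 0.783 times the reference in control Ly6C low monocyte-like cells and at 0.858 and 0.735 times in dendritic cell-like cells. Without cells of 10 or more alarmin UMIs in both classes compared, these were 1.155 and 1.03, and 1.142 and 0.966. In AdipoΔ/Δ mice *S100a8* was then at 1.317 in Ly6C low monocyte-like, 2.065 (1.268 to 3.276) in dendritic cell-like and 2.021 (1.463 to 2.807) in macrophage-like cells. *S100a9* was at 1.004, 0.676 and 1.068. Outside these classes, *S100a8* passed in the unnamed AdipoΔ/Δ cluster led by *Lyz1*, with 161 UMIs in 180 cells. There 1 cell held 183 of the 306 UMIs of the pair. *Mmp8* and *Prtn3* passed in dividing control cells, on 2 and 3 UMIs. *S100a9* and *Retnlg* passed in the control T cell-like cluster led by *Lef1*, which is itself part of the reference.

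The mix of transcripts in lymphocyte-like cells was compared with that in neutrophil-like cells by scaling each gene to 100 UMIs of *S100a8*. In the control library the intervals of both mixes were apart for 4 of the 8 members with at least 100 UMIs over both classes, *S100a9*, *Retnlg*, *Ngp* and *Mmp9*, against 99.1% of 4907 genes. Of the 4865 genes apart, 4864 were higher in lymphocyte-like cells. The share over all genes is thus no measure of a common source of the members' UMIs, which was not tested. The intervals overlapped for *Lcn2*, *Ltf*, *Camp* and *Mmp8*, and for *Prtn3*, which had fewer UMIs. These overlaps rest on wide intervals, from 12 *Lcn2*, 2 *Ltf*, 10 *Camp* and 5 *Mmp8* UMIs in lymphocyte-like cells. For example, *Camp* was at 2.82 (2.72 to 2.91) in neutrophil-like and 1.92 (0.913 to 3.55) in lymphocyte-like cells, from 10 UMIs. *Retnlg* was at 12.0 (11.8 to 12.2) and 16.5 (12.96 to 20.7), *S100a9* at 104 (103 to 105) and 127 (113 to 143), and *Ngp* at 2.82 and 0.575 (0.118 to 1.69). In the AdipoΔ/Δ library the intervals were apart for 2 of 5 such members, *S100a9* and *Mmp9*, against 99.3% of 4341 genes. All 4312 genes apart there were higher in lymphocyte-like cells. *Camp*, *Ltf*, *Ngp*, *Mmp8* and *Prtn3* each had 0 UMIs in lymphocyte-like cells there, too few for a comparison of mixes. *Camp* UMIs were therefore found in lymphocyte-like cells of the library that also had the 6 *Camp* cells and not in the other, although 0 *Camp* UMIs beside 121 of *S100a8* there allows up to 3.096 per 100. *Mmp9* was higher in the lymphocyte-like mix of both libraries, at 1.73 (1.65 to 1.80) and 4.21 (2.62 to 6.45) in control and 2.27 (2.13 to 2.42) and 16.5 (9.75 to 26.7) in AdipoΔ/Δ mice. Of the 20 *Mmp9* UMIs in AdipoΔ/Δ lymphocyte-like cells, 18 lay in T cell-like cells, up to 5 in a cell. The T cell-like cluster led by *Cxcr6* held 16 of them, and B and NK cell-like cells held 1 each. The unnamed cluster led by *Cd7*, which is not part of the reference, held 11 further *Mmp9* UMIs in 40 AdipoΔ/Δ cells and 3 in 41 control cells. *Mmp9* was past the reference in its AdipoΔ/Δ cells. Whether T cell-like cells make *Mmp9* was not tested. For this gene the reference therefore cannot be read as transcripts from outside the cell alone.

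**Figure D5:**
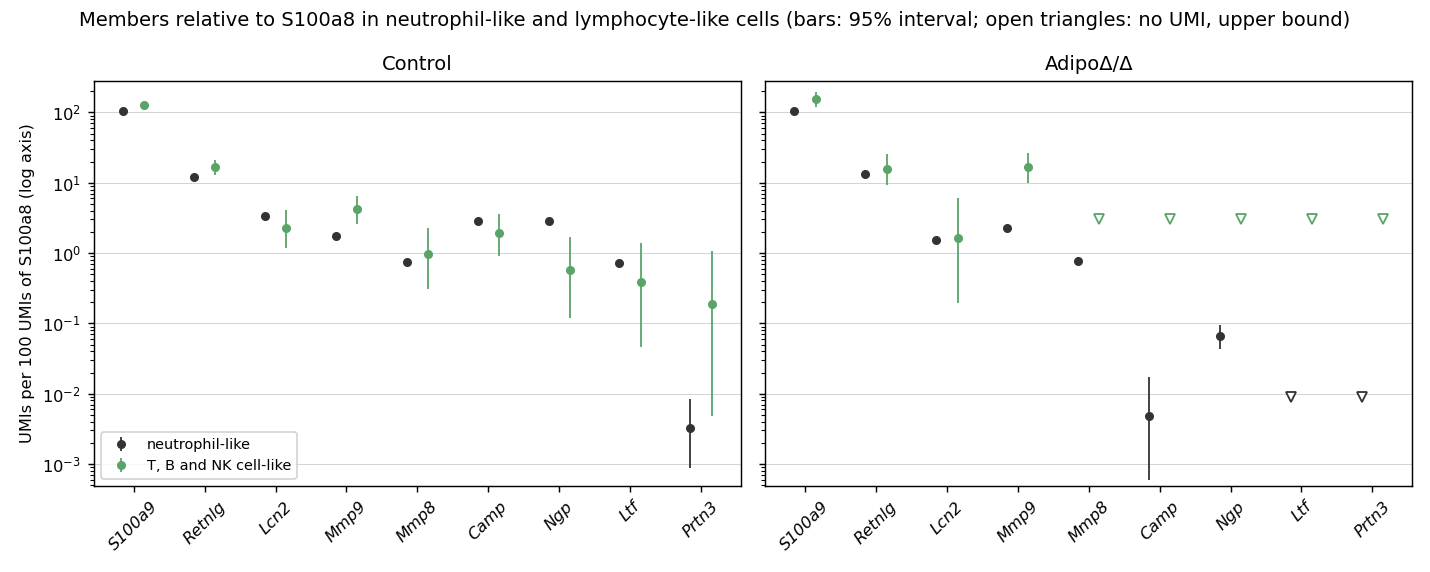
UMIs of each gene per 100 UMIs of *S100a8* (log axis) in neutrophil-like cells and in T, B and NK cell-like cells together, control on the left and AdipoΔ/Δ on the right; bars are 95% intervals and open triangles upper bounds where no UMI was counted. The intervals of *Camp* and *Lcn2* overlap in control, those of *Ngp* do not, and *Mmp9* lies higher in lymphocyte-like cells of both.

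The longer list of granule, alarmin, receptor and regulator genes gave 45 measured genes besides the 10. Of these, 25 had at least 100 UMIs in neutrophil-like cells, and 4 were past 2-fold lower and 0 past 2-fold higher in the AdipoΔ/Δ library, against 1.48% and 2.73% of the 1758 genes of the class. The lower ones were *Chil3* at 0.0101 (0.00122 to 0.0366), *Cd177*, a surface protein held in specific granules, at 0.383 (0.247 to 0.575), *Cybb*, the NADPH oxidase subunit, at 0.412 (0.291 to 0.570), and *Mmp25*, a membrane metalloproteinase, at 0.449 (0.270 to 0.715). The 6 control cells held 98.4% of the control *Chil3*, 67.1% of the *Cybb* and 51.9% of the *Cd177* UMIs, but 14.2% of those of *Mmp25*. Without them *Cybb* was at 1.16 (0.779 to 1.70), *Cd177* at 0.736 (0.459 to 1.15) and *Mmp25* at 0.483 (0.288 to 0.776).

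By role, 3 of 6 specific granule genes with enough UMIs, 1 of 4 gelatinase granule and late genes and 0 of 10 alarmin and cytosolic genes were past 2-fold lower, against 1.48% of all genes. The 3 specific granule genes were *Chil3*, *Cybb* and *Cd177*, and their calls rested on the 6 *Camp* cells. Without these cells they were at 0.570 (0.0578 to 2.996), 1.16 and 0.736, none past 2-fold lower. None of the 3 regulators or 2 receptors with enough UMIs was past 2-fold. Among the cytosolic genes, *S100a11* was at 1.007 (0.966 to 1.05) and *S100a6* at 0.9503 (0.918 to 0.984), *Wfdc21* at 0.586 (0.549 to 0.625), and *Il1b* at 1.62 (1.56 to 1.68). These 2 other S100 genes thus had ratios closer to 1 than those of *S100a8* and *S100a9*, but below the median of all genes of 1.20. The regulators *Cebpb* and *Spi1*, which encode C/EBPβ and PU.1, were at 1.42 (1.31 to 1.54) and 1.24 (1.11 to 1.38). The interval of *Spi1* includes that median, and the interval of *Cebpb* lies above it.

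Over 26 sums of UMIs, 1 for each class and library, the levels of *S100a8* were most like those of *Wfdc21* (Pearson r of 0.964), *Stfa2l1* (0.956) and *Cstdc4* (0.945) among 9452 genes outside the set. Those of *Camp* were most like *Cstdc5* (0.857), *Adpgk* (0.827) and *Cstdc4* (0.750), and those of *Mmp8* most like *Sgms2* (0.932), *Bmx* (0.929) and *Acta2* (0.917). Within the set, *Camp* followed *Ltf* (0.991) and *Ngp* (0.956) more closely than *S100a8* (0.718), and *S100a8* followed *S100a9* (0.989) but not *Prtn3* (0.0439). These sums share libraries and depth, and the coefficients are a description.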

How the data were processed

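CD45+ BAT cells were profiled with 10x Genomics 3′ chemistry (v3.1). The authors aligned reads to mm10 (per the labels) and counted UMIs with Cell Ranger (4.0.0 per the file headers), and deposited the raw counts by gene and barcode, not normalized. Gene positions come from GENCODE M21 through the Ensembl identifiers, of which 32158 of 32285 matched.

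Barcodes with under 200 genes or over 10% mitochondrial UMIs were dropped. The study's limit of 2% was an alternative, since it left 1306 and 889 cells. Each library was normalised with sctransform (0.4.2) with the mitochondrial share regressed out, both were integrated by anchors in Seurat (5.3.0, R 4.3.3) without the members and the granule list, and cells were clustered on 20 principal components at a resolution of 1.0. A class name required 3 markers, each in 10% of cells, and a mean log2 score of 1.0 on a prior of 10 CPM, limits set after seeing the data. UMIs were summed by class and library, and CPM is over all UMIs of the class. Free RNA was taken to add similar UMIs to each droplet, so comparisons with lymphocyte-like cells used UMIs per cell. Intervals (SciPy 1.17.1) cover counting error only, since no replicate library existed. All members were named, and from the granule list genes with at least 100 UMIs in neutrophil-like cells of both libraries together. *Mpo*, *Elane*, *Ctsg*, *Cebpe*, the dividing cell genes and *Cxcr2*, which are outside that limit or list, were named after their values were seen. The 3 genes most like *S100a8*, *Camp* and *Mmp8* were taken by Pearson r of log2(CPM + 10). The members and lists were chosen with earlier results of these data known. On simulated counts of 1758 genes made from the comparison of libraries in neutrophil-like cells, 95.8% of the 95% intervals contained the simulated ratio. These counts were Poisson draws without spread between cells or libraries. They check the calculation of the intervals and not whether counting error is the only spread in these data. Alternatives varied the mitochondrial and gene limits, features, resolution, integration, the neutrophil class, totals, the lymphocyte reference, its scale and thinning. The sequences and motifs come from the RefSeq promoter table. Reads and flow cytometry were not analysed here.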

Additional observations from a re-analysis of the deposited data

Results flagged for a closer look

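The barcodes left out by the filters held transcripts of these genes above the level of the reference. In the control library, 318 such barcodes held 22633 UMIs of *S100a8* and *S100a9*, 94.8% of them in 47 barcodes with 100 or more, and 2358 UMIs of the other 8 members. In the AdipoΔ/Δ library, 365 such barcodes held 1775 UMIs of the pair, 80.6% of them in 5 barcodes, and 184 of the other 8. The 47 control barcodes had a median of 932 detected genes and 13.4% mitochondrial UMIs. *Camp* and *Ltf* had 0 UMIs in the left-out barcodes of either library.

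The AdipoΔ/Δ over control CPM ratio went opposite ways in neutrophil-like and Ly6C high monocyte-like cells for 3 members whose intervals left out equal levels in both classes. It was 0.725 and 1.25 for *S100a8*, 0.738 and 1.63 for *S100a9*, and 0.816 and 2.03 for *Retnlg*. With 1 library per condition the difference was not tested. Without cells of 10 or more alarmin UMIs, the ratios in monocyte-like cells were 0.224, 0.442 and 0.214, and they were also below 1 with a mitochondrial limit of 2%, with all features or without integration.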

How the results depend on the processing

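No paired analysis was possible because each condition had 1 library and no test was made. Of the values that answer a comparison, 113 moved by less than their counting interval, or, for counts of genes or cells, stayed within 1.5 times, and 50 moved by more. The members' share of UMIs in control and AdipoΔ/Δ neutrophil-like cells was 26.6% and 18.9%, and 27.5% and 19.5% with a mitochondrial limit of 5%, 28.5% and 20.5% with 2%, 26.5% and 17.7% with all 2000 features, 37.4% and 23.7% with totals without members and mitochondrial genes, and 18.0% and 7.81% with the class taken from markers alone. In control it was 26.8% with 500 genes required and 24.6% without the 6 *Camp* cells. The class taken from markers held 370 and 243 cells, of which 305 and 165 were in the clusters used, and gave a ratio of all members of 0.435 in place of 0.712 and 8 members past 2-fold lower in place of 4. Their ratio was 0.719 with the 2% limit, 0.666 with all features, 0.633 with the other totals and 0.770 without the *Camp* cells, where 0 members were past 2-fold lower and 0 cells had 10 *Camp* UMIs.

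Member UMIs per lymphocyte-like cell, 1.55 in control and 0.647 in AdipoΔ/Δ mice, were 1.33 and 1.20 with the 2% limit, 1.73 and 0.402 in T, 1.06 and 1.76 in B and 1.82 and 0.439 in NK cell-like cells, and 1.17 and 0.400 without cells of 10 or more alarmin UMIs. In AdipoΔ/Δ mice they were 0.790 with the 5% limit and 0.720 without integration. The order of the libraries thus turned in B cell-like cells, with a ratio of 1.65 in place of 0.418. In Ly6C high monocyte-like cells the AdipoΔ/Δ over control ratios of *S100a8*, *S100a9* and *Retnlg*, 1.25, 1.63 and 2.03, turned to 0.201, 0.609 and 0.383 with the 2% limit, 0.221, 0.367 and 0.202 with all features, 0.198, 0.401 and 0.248 without integration and 0.224, 0.442 and 0.214 without alarmin-rich cells. In neutrophil-like cells *Camp* turned from 0.00124 to 2.00 without the *Camp* cells, on 2 UMIs in each library. No other ratio whose interval in the main setting left out equal levels turned in the settings run. Ratios whose interval included equal levels, such as that of *Mmp9* in neutrophil-like cells, were not counted as turned. Members past the reference in control macrophage-like cells numbered 9, but 4 with the 2% limit, 3 with all features, 5 at resolution 2.0, 5 without integration and 1 without the cells of 10 or more alarmin UMIs. In AdipoΔ/Δ macrophage-like cells they numbered 2, and 1 with the 2% limit or the T, B or NK cell-like reference. In AdipoΔ/Δ Ly6C high monocyte-like cells they numbered 5, and 2 with the 2% limit, all features, no integration, the B cell-like reference or without the alarmin-rich cells. The mixes in control overlapped for 5 of 9 members, and for 8 with the 2% limit or the B cell-like reference. The cause was not tested, except that leaving out cells lowers counts by its construction. The settings without *Camp* cells and without alarmin-rich cells of the myeloid classes were chosen after seeing the data. In neutrophil-like cells depth leaves *Prtn3* (4 and 0 UMIs) without a ratio, *Ltf* with a bound and *Camp* with 2 AdipoΔ/Δ UMIs.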
